A study of Mus musculus with 18 samples.

Results

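The 40 genes described here encode proteins of mitosis: proliferation markers, mitotic kinases and cyclins, the spindle checkpoint, the kinetochore, spindle motors and the machinery of cytokinesis. They were picked by gene name, with earlier results of these data known, and all 40 were found among the 46078 genes of both deposited count tables. Entry into mitosis is driven by cyclin-dependent kinase 1 with A-type and B-type cyclins. The spindle then captures chromosomes at their kinetochores, and a checkpoint holds back the anaphase-promoting complex until each kinetochore is attached, after which separase frees the sister chromatids and the cell is cleaved. Transcripts of most such genes build up toward G2 and mitosis, so that they tend to be low in resting T cells and high in dividing ones.

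The cells were regulatory T cells (Tregs), CD4 T cells that express Foxp3 and hold back immune responses, and their RNA was sequenced in bulk. All cells were sorted by flow cytometry from male mice of the Foxp3(DTR/GFP) strain aged 10 weeks, in which cells expressing Foxp3 carry a diphtheria toxin receptor and a green fluorescent protein. The control group was Tregs from spleens of uninjured mice (6 libraries). On day 7 after injury, Tregs were taken from bone with a defect of the skull, from quadriceps muscle after volumetric loss, from skin with punch wounds through its full thickness, or from heart infarcted by tying the left coronary artery, with 3 libraries per tissue and 3 mice pooled in each. Neither these tissues without injury nor the spleen of an injured mouse was among the samples, so that effects of tissue and of injury cannot be told apart. In such bulk RNA, more dividing cells and more transcript per dividing cell cannot be told apart either.

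Libraries carried names of 2 styles, Endo and Tregs, in the labels and table headers, which do not say what the styles stand for. The Endo style was borne by spleen replicates 1 to 3, heart replicate 1 and the 3 skin libraries, and the Tregs style by the others. Fold changes below come from a model that holds tissue and style, so that bone and muscle are in effect set against spleen replicates 4 to 6 and skin against spleen replicates 1 to 3. Levels are CPM, read counts scaled to library size, and are not adjusted for style. The total count of a library lay between 5970346 and 15756884 for spleen, between 8375212 and 11907745 for skin, between 11139361 and 12974890 for heart, between 11582403 and 13358526 for muscle and between 11588253 and 22635760 for bone. Each of the 40 genes was detected in all 18 libraries and passed the filter on low counts, the lowest single count being 4. Markers of Tregs and T cells (Foxp3, Il2ra, Ctla4, Ikzf2, Cd4 and Cd3e, all measured) summed to 3360 to 3957 CPM in spleen and 5139 to 7767 CPM in the injured tissues. Of these 6, 4 rose in bone, 3 in heart, 4 in muscle and 4 in skin, and Cd3e fell in skin. Spleen replicates 1 and 2 stood apart by their share of ribosomal RNA repeat genes (11.03% and 10.3% of counts, against at most 6.58% in the other 16 libraries). Without these 2 libraries, 22, 34 and 26 of the 40 genes rose in bone, muscle and heart, beside the 13, 31 and 23 given below. Of all genes tested without them, 1428 of 15323 rose in bone and 1583 of 14521 in heart. Skin is then in effect set against spleen replicate 3 alone, so that no count is given for it.

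Tregs of all 4 injured tissues held more mitotic transcript than spleen Tregs. Summed over the 40 genes, the level was 388, 385, 839, 796, 1099 and 1286 CPM in spleen replicates 1 to 6. It was 2032, 1910 and 2076 CPM in bone, 3945, 2271 and 2789 CPM in muscle, 2729, 2616 and 2810 CPM in skin, and 1765, 1574 and 3081 CPM in heart. In this sum no library of an injured tissue overlapped spleen. Bone and skin were tight, whereas muscle replicate 1 and heart replicate 3 stood above the other 2 libraries of their tissue. The sum is weighted to abundant genes, with Mki67 alone averaging 599 CPM in bone and 896 CPM in muscle. The median level of the 40 genes was 17.4 CPM in heart replicate 2, below the 17.6 CPM of spleen replicate 6. All other injured libraries lay above spleen in this median. The group means of the sum were 799 ± 366 CPM (SD, n = 6) in spleen, 2006 ± 85.9 in bone, 2140 ± 821 in heart, 3002 ± 857 in muscle and 2719 ± 97.4 in skin (n = 3 each).

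**Figure D1:**
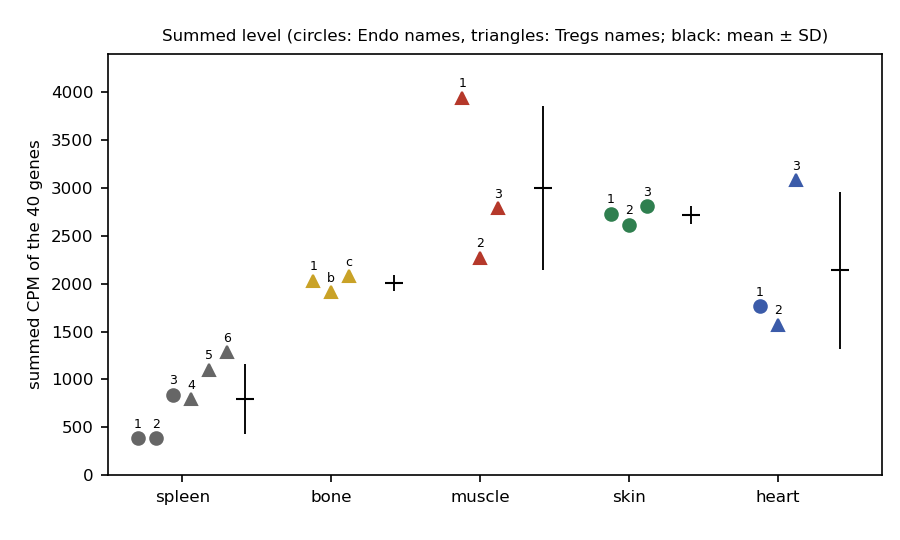
Summed CPM of the 40 mitotic genes in each library (vertical axis), by tissue; numbers or letters name the library, circles have Endo names and triangles Tregs names, and black marks give mean ± SD. The 12 libraries of injured tissues lie between 1574 and 3945 CPM, all above the highest spleen library at 1286 CPM.

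Past an adjusted p of 0.05 (edgeR's quasi-likelihood test, Benjamini-Hochberg over all genes tested), 13 of the 40 genes rose in bone, where 8.48% of all genes tested rose. In muscle 31 of 40 rose against a background of 14.2%, in skin 38 of 40 against 15%, and in heart 23 of 40 against 11.8%. None of the 40 fell in these 4 comparisons by edgeR, DESeq2 or limma-voom, where by edgeR 6.32% (bone), 11.3% (muscle), 12.8% (skin) and 8.46% (heart) of all genes tested fell. Of the 40 genes, Bub3 and Mad2l1 in bone and Bub3 in heart had a log2 fold change below 0, with adjusted p of 0.2 or above. The median log2 fold change of the 40 genes was 0.93 in bone, 1.5 in heart, 1.63 in muscle and 2.62 in skin, beside medians over all genes of 0.01, -0.03, -0.01 and -0.07 in the same order. The genes that rose in all 4 tissues numbered 13 of 40 (against 788 of 14849 genes, or 5.31%): Ccna2, Aurkb, Bub1, Cdc20, Birc5, Incenp, Cdca8, Cenpa, Kif23, Kif4, Prc1, Anln and Foxm1. Another 9 rose in 3 tissues, 9 in 2 and 8 in 1, and Bub3 alone of the 40 passed in no tissue. In terms of range, 29 of the 40 genes in bone had all 3 libraries above all 6 of spleen, 33 in muscle, 39 in skin and 20 in heart, where 12.4%, 14.5%, 18.3% and 13% of all genes tested did so.

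The order of tissues depends on whether levels or adjusted folds are read. By adjusted fold, skin was the largest of the 4 tissues for 39 of the 40 genes and bone the smallest for 36. The median log2 fold change in skin was 1.93 without spleen replicates 1 and 2, beside 1.64 in muscle, 1.18 in heart and 0.94 in bone, and it was 3.21 without spleen replicate 3. By mean level, skin was highest for 26 genes and muscle for 14, and spleen was lowest for 39. The median gene stood at 4.14 times the mean of all 6 spleen libraries in skin and at 4.13 times in muscle, with 2.5 times in bone and 2.91 times in heart. Set against the Endo-style spleen libraries alone, the median ratio for skin was 6.27, and against the Tregs-style ones 3.27. The style term itself was lower in Endo for 5 of the 40 genes (Plk1, Incenp, Kif20a, Kif23 and Hmmr), where 3.09% of all genes were lower. Without spleen replicates 1 and 2, spleen replicate 3 is the only Endo-style spleen library, and the style term and the skin folds rest on it. The median style term of the 40 genes then went from -0.83 to -0.25. With a single library on that side, no count of calls for style is given.

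**Figure D2:**
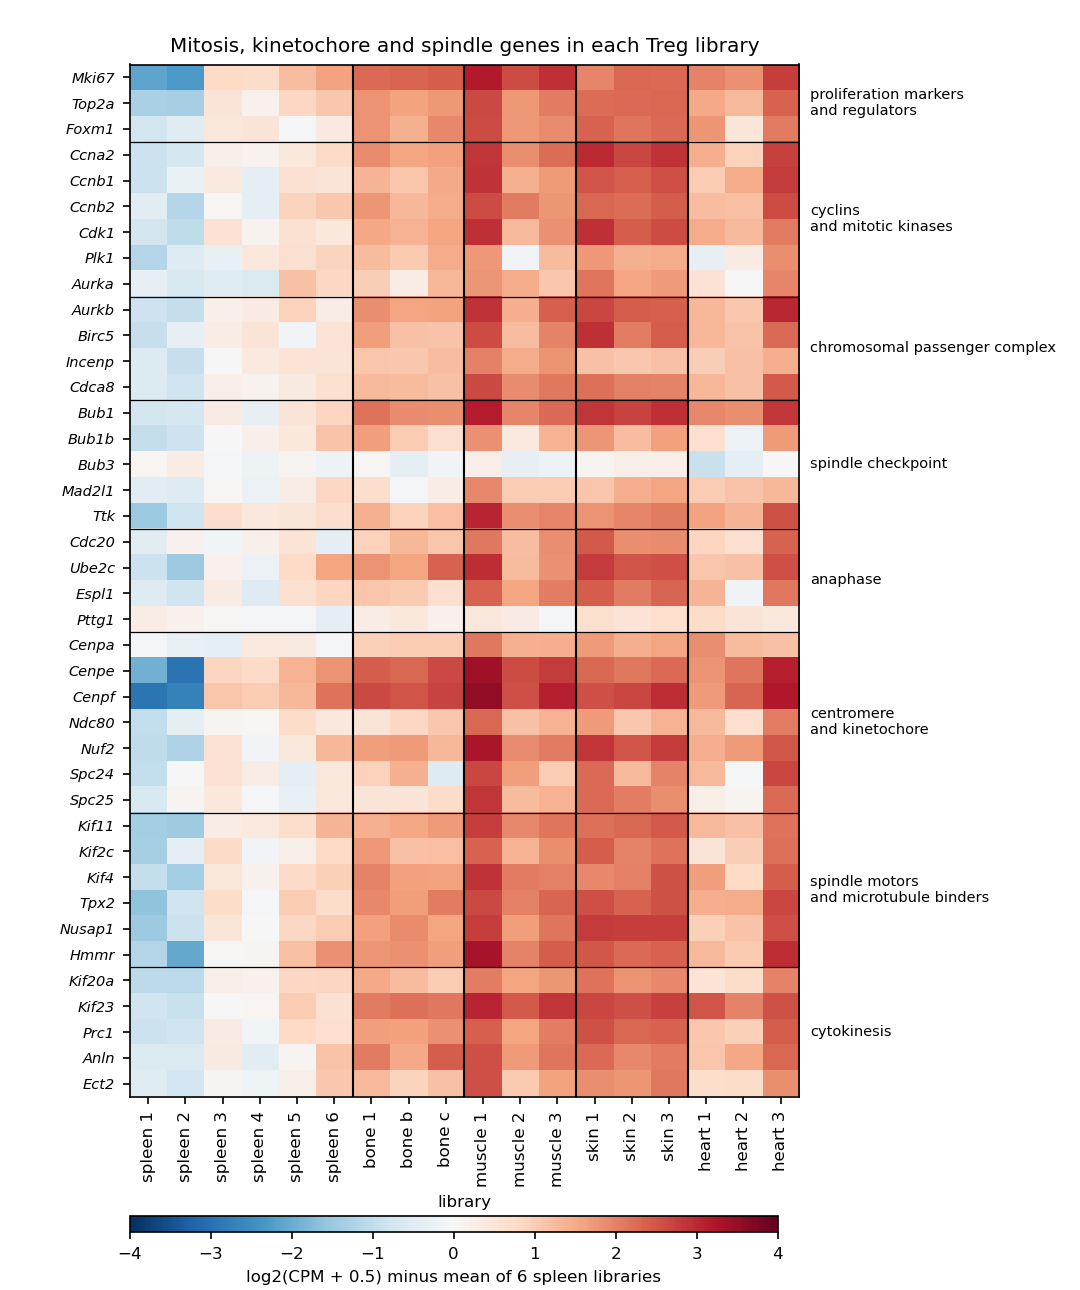
Difference of log2(CPM + 0.5) from the mean of the 6 spleen libraries (colour) for the 40 genes (rows, grouped by role) in the 18 libraries (columns). Red prevails in the 12 injured libraries and is deepest in muscle replicate 1, skin and heart replicate 3, while spleen replicates 1 and 2 are blue and the rows of Bub3 and Pttg1 stay pale.

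Promoters are shown here because many of these genes moved together and share known promoter elements: the cell cycle genes homology region (CHR, searched as TTTGAA or its reverse complement TTCAAA), bound by the MuvB complexes, and the CCAAT box (CCAAT or ATTGG), bound by NF-Y. RefSeq promoter sequences (GRCm38.p6, 250 bases before to 50 after each start) were at hand for 33 of the 40 genes, with 36 starts. TTTGAA on either strand stood in 28 of 36 such windows (77.8%), against 17.9% of 32851 windows over all genes. CCAAT on either strand also stood in 28 of 36 (77.8%, against 37.4%), and both stood in 25 (69.4%, against 6.95%). Within the 250 bases before the start alone, the shares were 38.9% against 16% for TTTGAA, 77.8% against 33.8% for CCAAT and 36.1% against 5.55% for both. The 2 motifs can share no more than 1 letter, a match describes letters and not a bound site, and the 2 starts of Bub3, Prc1 and Ect2 share sequence. The 150 bases before the start are given for 7 genes, 5′ to 3′ on the strand of the gene, with both motifs, on either strand, in capitals. Mki67, Top2a, Cdc20 and Kif11 hold both motifs there, Bub1, which had the largest fold of all 40 in skin, and Hmmr hold CCAAT alone, and Mad2l1 holds neither in these 150 bases or in the whole window.
Mki67 (chr7:135716380-135716529, minus strand): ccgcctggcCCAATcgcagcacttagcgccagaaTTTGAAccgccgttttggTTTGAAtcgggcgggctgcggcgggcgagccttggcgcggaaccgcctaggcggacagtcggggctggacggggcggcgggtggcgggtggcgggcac
Top2a (chr11:99024190-99024339, minus strand): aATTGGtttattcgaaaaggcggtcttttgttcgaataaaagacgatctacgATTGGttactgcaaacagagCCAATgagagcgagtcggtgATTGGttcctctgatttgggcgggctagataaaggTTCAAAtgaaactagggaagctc
Cdc20 (chr4:118437344-118437493, minus strand): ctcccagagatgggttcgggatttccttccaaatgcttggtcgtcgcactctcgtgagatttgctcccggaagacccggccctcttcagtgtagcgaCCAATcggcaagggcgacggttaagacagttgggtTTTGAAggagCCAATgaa
Kif11 (chr19:37376232-37376381, plus strand): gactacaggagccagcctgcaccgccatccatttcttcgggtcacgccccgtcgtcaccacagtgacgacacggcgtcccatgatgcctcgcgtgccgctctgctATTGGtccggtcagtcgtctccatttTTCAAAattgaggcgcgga
Bub1 (chr2:127831860-127832009, minus strand): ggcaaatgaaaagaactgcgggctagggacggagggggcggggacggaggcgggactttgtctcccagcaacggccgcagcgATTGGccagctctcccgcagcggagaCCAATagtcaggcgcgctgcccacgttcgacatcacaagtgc
Hmmr (chr11:40733438-40733587, minus strand): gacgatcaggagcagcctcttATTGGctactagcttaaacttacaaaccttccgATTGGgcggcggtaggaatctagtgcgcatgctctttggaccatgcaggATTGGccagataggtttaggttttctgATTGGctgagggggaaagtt
Mad2l1 (chr6:66535071-66535220, plus strand): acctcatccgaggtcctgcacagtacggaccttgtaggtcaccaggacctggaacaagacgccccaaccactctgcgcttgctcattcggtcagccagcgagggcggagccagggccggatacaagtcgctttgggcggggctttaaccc

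Among the 3 proliferation markers and regulators, 1 rose in bone, 1 in heart, 2 in muscle and 3 in skin. Mki67 (ENSMUSG00000031004, chromosome 7: 135689784 to 135716361 of GRCm38, minus strand), whose product Ki-67 coats mitotic chromosomes, ran from 23.7 to 363 CPM in spleen (median 202). Its levels were 567, 590.4 and 641 CPM in bone, 1062, 722 and 904 CPM in muscle, 457, 582 and 568 CPM in skin and 467, 425 and 809.5 CPM in heart. Every injured library exceeded every spleen library, yet spleen itself split widely, with replicates 1 and 2 at 27.3 and 23.7 CPM and the other 4 at 196 CPM or above. Mki67 passed in skin, at 6.11-fold (log2 2.61 ± 0.70, adjusted p = 0.017), and missed in bone (2.098-fold (log2 1.07 ± 0.66, adjusted p = 0.35)), muscle (3.19-fold (log2 1.67 ± 0.67, adjusted p = 0.096)) and heart (3.203-fold (log2 1.68 ± 0.76, adjusted p = 0.18)). Top2a, the topoisomerase that untangles replicated DNA, ran from 28.2 to 152 CPM in spleen (median 91.1). It reached 250.2, 218 and 238 CPM in bone, 441, 235 and 303 CPM in muscle, 338, 341 and 350.0 CPM in skin and 205, 177 and 370.1 CPM in heart, again without overlap with spleen. Top2a rose 2.73-fold in muscle (adjusted p = 0.034) and 6.36-fold in skin (adjusted p = 0.0012), and its values in bone and heart were log2 0.95 ± 0.44, adjusted p = 0.19 and log2 1.49 ± 0.48, adjusted p = 0.067. Foxm1, a transcription factor that switches on G2 and mitosis genes, ran from 3.97 to 10.2 CPM in spleen (median 7.87). It stood at 25.8, 19.4 and 27.8 CPM in bone, 45.4, 24.4 and 27.4 CPM in muscle, 37.8, 32.2 and 35.6 CPM in skin and 25.2, 9.95 and 31.1 CPM in heart. Heart replicate 2 was within the spleen range, and all other injured libraries lay above it. Foxm1 rose 2.76-fold in bone, 2.93-fold in heart, 3.73-fold in muscle and 5.58-fold in skin (adjusted p = 0.00082, 0.0069, 2.8e-05 and 1.5e-06).

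Of the 6 cyclins and mitotic kinases, 1 rose in bone, 4 in heart, 4 in muscle and 6 in skin. Ccna2 (ENSMUSG00000027715, chromosome 3: 36564865 to 36572150 of GRCm38, minus strand), cyclin A2, acts in S phase and at entry into mitosis. It ran from 10.2 to 32.7 CPM in spleen (median 21.7). Its levels were 72.1, 57.4 and 59.97 CPM in bone, 140.2, 70.2 and 90.3 CPM in muscle, 155, 124 and 144 CPM in skin and 52.3, 36.5 and 129 CPM in heart. No injured library overlapped spleen, skin and muscle replicate 1 were highest, and heart spread from 36.5 to 129 CPM. Ccna2 rose 2.34-fold (log2 1.23 ± 0.26, adjusted p = 0.0029) in bone, 3.77-fold (log2 1.91 ± 0.26, adjusted p = 2.8e-05) in muscle, 9.45-fold (log2 3.24 ± 0.29, adjusted p = 9.4e-08) in skin and 3.27-fold (log2 1.71 ± 0.36, adjusted p = 0.0066) in heart. Ccnb1 and Ccnb2 encode the B cyclins that bind Cdk1 in mitosis. Ccnb1 ran from 1.98 to 6.39 CPM in spleen (median 4.38) and stood at 11.04, 9.21 and 12.5 CPM in bone, 33.2, 11.7 and 14.2 CPM in muscle, 25.2, 23.1 and 26.3 CPM in skin and 8.67, 12.3 and 30.8 CPM in heart. Ccnb2 ran from 4.85 to 24.9 CPM in spleen (median 10.2) and stood at 39.9, 29.7 and 32.97 CPM in bone, 73.3, 50.2 and 39.8 CPM in muscle, 58.6, 55.9 and 63.3 CPM in skin and 27.5, 26.9 and 72.3 CPM in heart. Both were above the spleen range in all 12 injured libraries. Ccnb1 rose 3.46-fold in heart, 3.82-fold in muscle and 6.78-fold in skin, and Ccnb2 2.91-fold, 2.96-fold and 6.98-fold in the same order. In bone they missed the threshold, at log2 1.06 ± 0.37, adjusted p = 0.06 for Ccnb1 and log2 0.87 ± 0.32, adjusted p = 0.082 for Ccnb2.

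Cdk1, the kinase that drives entry into mitosis, ran from 2.25 to 8.01 CPM in spleen (median 6.302) and reached 15.7, 14.1 and 16.1 CPM in bone, 41.96, 13.04 and 19.2 CPM in muscle, 41.5, 28.9 and 33.1 CPM in skin and 14.9, 13.2 and 22.9 CPM in heart. All 12 injured libraries lay above spleen. Cdk1 rose 2.901-fold in heart, 3.58-fold in muscle and 7.79-fold in skin (adjusted p = 0.0062, 0.0013 and 1.6e-05), and in bone it narrowly missed the threshold (adjusted p = 0.053). Plk1, polo-like kinase 1, ran from 2.48 to 11.9 CPM in spleen (median 6.85) and stood at 15.7, 13.2 and 18.3 CPM in bone, 21.8, 5.77 and 15.8 CPM in muscle, 21.9, 17.3 and 18.3 CPM in skin and 4.804, 7.83 and 23.8 CPM in heart. Muscle replicate 2 and heart replicates 1 and 2 lay within the spleen range. Plk1 rose 4.88-fold (log2 2.29 ± 0.38, adjusted p = 7e-05) in skin, and in muscle and heart its values were log2 0.50 ± 0.34, adjusted p = 0.32 and log2 0.52 ± 0.35, adjusted p = 0.33. The difference itself passed between heart and skin (log2 -1.84 ± 0.47, adjusted p = 0.036) and between bone and skin (log2 -1.69 ± 0.51, adjusted p = 0.042), and missed between muscle and skin (adjusted p = 0.095). Aurka, the Aurora kinase of spindle poles, ran from 3.46 to 12.9 CPM in spleen (median 4.05) and stood at 11.3, 6.82 and 14.5 CPM in bone, 19.8, 16.4 and 12.3 CPM in muscle, 26.1, 17.4 and 19.3 CPM in skin and 8.48, 5.56 and 22.6 CPM in heart. It overlapped spleen in bone, muscle and heart, and it passed in skin at 5.38-fold (adjusted p = 5.9e-05).

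All 4 genes of the chromosomal passenger complex, which corrects faulty attachments and steers cytokinesis, rose in every tissue. Their calls held in every alternative in muscle and skin. In bone none of the 4 did, and in heart that of Aurkb did not. Aurkb, the kinase of the complex, ran from 1.904 to 8.395 CPM in spleen (median 5.14) and stood at 16.7, 13.6 and 13.9 CPM in bone, 34.6, 12.4 and 24.1 CPM in muscle, 29.6, 24.6 and 24.2 CPM in skin and 11.2, 9.402 and 37.1 CPM in heart. No injured library overlapped spleen, and heart replicate 3 and muscle replicate 1 were highest. Aurkb rose 2.26-fold (log2 1.17 ± 0.33, adjusted p = 0.018) in bone, 3.69-fold (log2 1.88 ± 0.34, adjusted p = 0.0002) in muscle, 8.39-fold (log2 3.07 ± 0.38, adjusted p = 1.4e-06) in skin and 3.64-fold (log2 1.86 ± 0.40, adjusted p = 0.0044) in heart. Birc5, survivin, ran from 3.97 to 11.8 CPM in spleen (median 8.54) and stood at 26.2, 18.5 and 17.9 CPM in bone, 51.1, 19.4 and 33.03 CPM in muscle, 62.95, 33.9 and 44.1 CPM in skin and 20.7, 18.02 and 40.3 CPM in heart. It too was above spleen in all 12 libraries, with skin replicate 1 highest, and rose 2.02-fold, 3.39-fold, 6.91-fold and 2.95-fold in bone, muscle, skin and heart. Incenp, the scaffold, rose 1.54-fold to 2.999-fold, and Cdca8, borealin, 1.82-fold to 5.42-fold, from bone to skin. Incenp was the most abundant of the 4 per exon length in spleen, at 7.83 CPM per kb, against 1.59 to 2.47 for the others.

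The 5 genes of the spindle checkpoint did not move as 1 group: 1 rose in bone, 3 in heart, 3 in muscle and 4 in skin. Bub1 (ENSMUSG00000027379, chromosome 2: 127801122 to 127831865 of GRCm38, minus strand), a checkpoint kinase of the kinetochore, ran from 1.82 to 6.45 CPM in spleen (median 3.44) and stood at 16.8, 13.8 and 13.3 CPM in bone, 33.2, 14.4 and 17.8 CPM in muscle, 27.1, 24.3 and 28.4 CPM in skin and 14.1, 13.4 and 26.4 CPM in heart. It had the largest fold of the 40 genes in muscle and skin, and no injured library overlapped spleen. Bub1 rose 3.09-fold (log2 1.63 ± 0.35, adjusted p = 0.0021) in bone, 4.65-fold (log2 2.22 ± 0.36, adjusted p = 5.2e-05) in muscle, 9.59-fold (log2 3.26 ± 0.39, adjusted p = 9.6e-07) in skin and 4.58-fold (log2 2.19 ± 0.36, adjusted p = 0.00063) in heart. Bub3, the WD-repeat partner of Bub1 and BubR1, ran from 57.8 to 83.1 CPM in spleen (median 67.6) and stood at 68.7, 52 and 61.9 CPM in bone, 81.1, 52.9 and 57.6 CPM in muscle, 72.5, 78.95 and 80.6 CPM in skin and 36.2, 52.4 and 68.3 CPM in heart. Its libraries overlapped spleen in all 4 tissues, and its mean was lowest in heart. Its values were log2 -0.07 ± 0.17, adjusted p = 0.84 in bone, log2 0.02 ± 0.17, adjusted p = 0.95 in muscle, log2 0.08 ± 0.17, adjusted p = 0.76 in skin and log2 -0.39 ± 0.20, adjusted p = 0.2 in heart. Mad2l1, the Mad2 protein that seizes Cdc20, ran from 13.3 to 35.4 CPM in spleen (median 18.2) and stood at 32.03, 18.6 and 24.2 CPM in bone, 75.6, 39.7 and 39.5 CPM in muscle, 42.2, 54.5 and 58.5 CPM in skin and 39.7, 43.3 and 49.5 CPM in heart. Bone lay within the spleen range and muscle, skin and heart above it. Mad2l1 rose 2.03-fold, 3.21-fold and 2.06-fold in muscle, skin and heart, and in bone its value was log2 -0.05 ± 0.29, adjusted p = 0.94. Here bone differed from each of the other 3 tissues, at log2 -1.07 ± 0.29, adjusted p = 0.036 for bone against muscle, log2 -1.73 ± 0.41, adjusted p = 0.013 for bone against skin and log2 1.01 ± 0.29, adjusted p = 0.038 for heart against bone. Each of these 3 calls was lost in some alternative. Those against muscle and heart were lost without bone library b, without bone library c or without spleen replicate 5, among others. That against skin was lost without spleen replicates 1 and 2, where the style term rests on spleen replicate 3 alone. Ttk, the kinase Mps1 that starts checkpoint signalling, rose in muscle, skin and heart, and Bub1b, which encodes BubR1, passed in skin at 4.43-fold.

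Of the 4 genes of anaphase, 1 rose in bone, 2 in heart, 2 in muscle and 3 in skin. Cdc20, the activator of the anaphase-promoting complex in mitosis, ran from 3.8 to 7.88 CPM in spleen (median 5.44) and stood at 10.4, 14.1 and 11.96 CPM in bone, 24.5, 13.2 and 20.6 CPM in muscle, 31.2, 20.6 and 21.1 CPM in skin and 9.98, 8.46 and 29.4 CPM in heart. No injured library overlapped spleen. Cdc20 rose 1.98-fold in bone, 2.69-fold in heart, 3.21-fold in muscle and 4.94-fold in skin (adjusted p = 0.028, 0.015, 0.0002 and 7.2e-06). Ube2c, the ubiquitin-conjugating enzyme of that complex, ran from 2.77 to 26.1 CPM in spleen (median 8.3) and stood at 30.8, 26.4 and 44.9 CPM in bone, 69.2, 20.9 and 31.4 CPM in muscle, 62.03, 50.2 and 53.4 CPM in skin and 18.8, 19.4 and 52.6 CPM in heart. Muscle replicate 2 and heart replicates 1 and 2 lay within the spleen range, and Ube2c passed in skin at 9.54-fold (log2 3.25 ± 0.59, adjusted p = 0.0013). Espl1, separase, the protease that cuts cohesin, ran from 2.596 to 9.28 CPM in spleen (median 4.83) and stood at 11.3, 10.8 and 7.87 CPM in bone, 27.3, 15.8 and 21.97 CPM in muscle, 28.4, 22.3 and 26.8 CPM in skin and 13.4, 4.47 and 22.7 CPM in heart. Bone and heart overlapped spleen, and Espl1 rose 3.15-fold in muscle and 6.17-fold in skin. Pttg1, securin, the inhibitor of separase, ran from 24.7 to 40.3 CPM in spleen (median 32.4) and stood at 40.01, 43.7 and 36.8 CPM in bone, 44.4, 40.8 and 31.3 CPM in muscle, 50.9, 47.9 and 51.6 CPM in skin and 54.5, 47.2 and 43.5 CPM in heart. Within spleen it was highest in replicates 1 and 2, and within heart lowest in replicate 3. Pttg1 rose in heart at 1.53-fold (log2 0.61 ± 0.15, adjusted p = 0.01), and in skin its value was log2 0.45 ± 0.17, adjusted p = 0.057 with no overlap of libraries.

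Of the 7 genes of centromere and kinetochore, 1 rose in bone, 3 in heart, 5 in muscle and 7 in skin. Cenpa (ENSMUSG00000029177, chromosome 5: 30666777 to 30674830 of GRCm38, plus strand), the histone variant that marks centromeres, ran from 46.1 to 78.2 CPM in spleen (median 57.2) and stood at 116, 121 and 121 CPM in bone, 259, 158 and 163 CPM in muscle, 194, 164 and 179 CPM in skin and 216, 144 and 135 CPM in heart. No injured library overlapped spleen, and the 3 bone libraries lay close together. Cenpa rose 1.65-fold (log2 0.72 ± 0.17, adjusted p = 0.0036) in bone, 2.73-fold (log2 1.45 ± 0.17, adjusted p = 7.4e-07) in muscle, 3.53-fold (log2 1.82 ± 0.17, adjusted p = 2.7e-08) in skin and 2.72-fold (log2 1.44 ± 0.19, adjusted p = 0.00012) in heart. Cenpe, a kinetochore motor, ran from 0.865 to 36.4 CPM in spleen (median 18.3) and stood at 55.96, 51.9 and 65.95 CPM in bone, 110.1, 64.7 and 72.7 CPM in muscle, 51.05, 45.5 and 50.5 CPM in skin and 35.98, 45.8 and 91.7 CPM in heart. Cenpf, a large protein of the outer kinetochore, ran from 0.661 to 39.2 CPM in spleen (median 17.8) and stood at 54.5, 49.6 and 56.98 CPM in bone, 103, 52.5 and 74.8 CPM in muscle, 51.9, 55.2 and 67.4 CPM in skin and 27.9, 44.03 and 80.1 CPM in heart. Both were near 0 in spleen replicates 1 and 2 and at 17.2 CPM or above in the other 4 spleen libraries. They passed in skin, at 6.28-fold for Cenpe (adjusted p = 0.016) and 8.17-fold for Cenpf (adjusted p = 0.017), and in the other tissues their adjusted p lay between 0.089 and 0.41. Ndc80, Nuf2, Spc24 and Spc25 form the NDC80 complex, the main link from kinetochore to microtubule. Ndc80 ran from 3.64 to 13.2 CPM in spleen (median 8.23) and stood at 11.3, 14.1 and 16.8 CPM in bone, 39.5, 17.99 and 20.8 CPM in muscle, 25.9, 16.9 and 20.8 CPM in skin and 19.6, 12.7 and 33.6 CPM in heart. Bone library 1 and heart replicate 2 lay within the spleen range. All 4 subunits rose in muscle and skin (2.46-fold to 4.27-fold and 3.49-fold to 8.89-fold), Ndc80 and Nuf2 rose in heart, and none passed in bone.

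Of the 6 spindle motors and microtubule binders, 1 rose in bone, 2 in heart, 6 in muscle and 6 in skin. Kif11, the motor that pushes spindle poles apart, ran from 8.31 to 60.2 CPM in spleen (median 29.4) and stood at 63.01, 68.4 and 76.2 CPM in bone, 159.5, 89.2 and 104 CPM in muscle, 107, 116 and 129 CPM in skin and 57.6, 52.3 and 105 CPM in heart. Heart replicates 1 and 2 lay within the spleen range. Kif11 rose 2.74-fold (log2 1.45 ± 0.39, adjusted p = 0.017) in muscle and 7.54-fold (log2 2.92 ± 0.43, adjusted p = 0.00024) in skin. Tpx2, which activates Aurora A on the spindle, ran from 3.305 to 22.9 CPM in spleen (median 14.4) and stood at 42.6, 36.4 and 48.2 CPM in bone, 71.1, 46.1 and 57.4 CPM in muscle, 68.4, 58.4 and 66.5 CPM in skin and 31.3, 31.3 and 72.9 CPM in heart. All 12 injured libraries lay above spleen, and Tpx2 rose 3.12-fold in heart, 3.36-fold in muscle and 6.65-fold in skin (adjusted p = 0.039, 0.0086 and 0.00054). Hmmr, a spindle-associated protein also known as a hyaluronan receptor, ran from 1.38 to 27.3 CPM in spleen (median 7.79) and stood at 25.9, 26.9 and 24.1 CPM in bone, 75.6, 30.5 and 41.5 CPM in muscle, 43.3, 36.8 and 39.8 CPM in skin and 18.8, 15.5 and 59.7 CPM in heart. The 3 bone libraries and heart replicates 1 and 2 lay within the spleen range. Hmmr rose 2.795-fold in muscle and 9.52-fold in skin. Kif4, a chromosome-bound motor, rose in all 4 tissues (2.14-fold in bone to 6.31-fold in skin), while Kif2c, a microtubule depolymerase, and Nusap1, which bundles spindle microtubules, rose in muscle and skin.

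Of the 5 genes of cytokinesis, 3 rose in bone, 4 in heart, 5 in muscle and 5 in skin. Kif23 (ENSMUSG00000032254, chromosome 9: 61915905 to 61946774 of GRCm38, minus strand), the motor of the centralspindlin complex, rose 2.83-fold (log2 1.5 ± 0.22, adjusted p = 2.7e-05) in bone, 4.599-fold (log2 2.2 ± 0.22, adjusted p = 9.9e-08) in muscle, 9.31-fold (log2 3.22 ± 0.25, adjusted p = 6.9e-10) in skin and 4.83-fold (log2 2.27 ± 0.30, adjusted p = 0.00017) in heart. Its lowest injured library, at 51.5 CPM in heart, was above the highest of spleen, at 26.0 CPM. Prc1, which bundles the microtubules of the spindle midzone, ran from 6.44 to 21.4 CPM in spleen (median 13.3) and stood at 39.8, 39.2 and 44.8 CPM in bone, 66.1, 37.4 and 51.9 CPM in muscle, 74.2, 62.5 and 65.1 CPM in skin and 26, 23.8 and 66.9 CPM in heart. It too lay above spleen in all 12 libraries and rose 2.31-fold, 2.95-fold, 6.92-fold and 2.63-fold in bone, muscle, skin and heart. Anln, anillin of the contractile ring, ran from 2.77 to 10.3 CPM in spleen (median 3.904) and stood at 19.9, 13.5 and 25.7 CPM in bone, 28.6, 15.4 and 21.2 CPM in muscle, 23.1, 17.8 and 20.02 CPM in skin and 9.98, 13.8 and 23.5 CPM in heart. Heart replicate 1 alone fell within the spleen range. Anln had the largest fold of the 40 genes in bone, at 3.203-fold (log2 1.68 ± 0.37, adjusted p = 0.0029), and rose in muscle, skin and heart as well. Ect2, which activates the small GTPase RhoA at the cleavage site, rose 2.71-fold, 4.88-fold and 1.99-fold in muscle, skin and heart, and Kif20a, a motor of the midzone, 2.27-fold in muscle and 5.65-fold in skin.

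**Figure D3:**
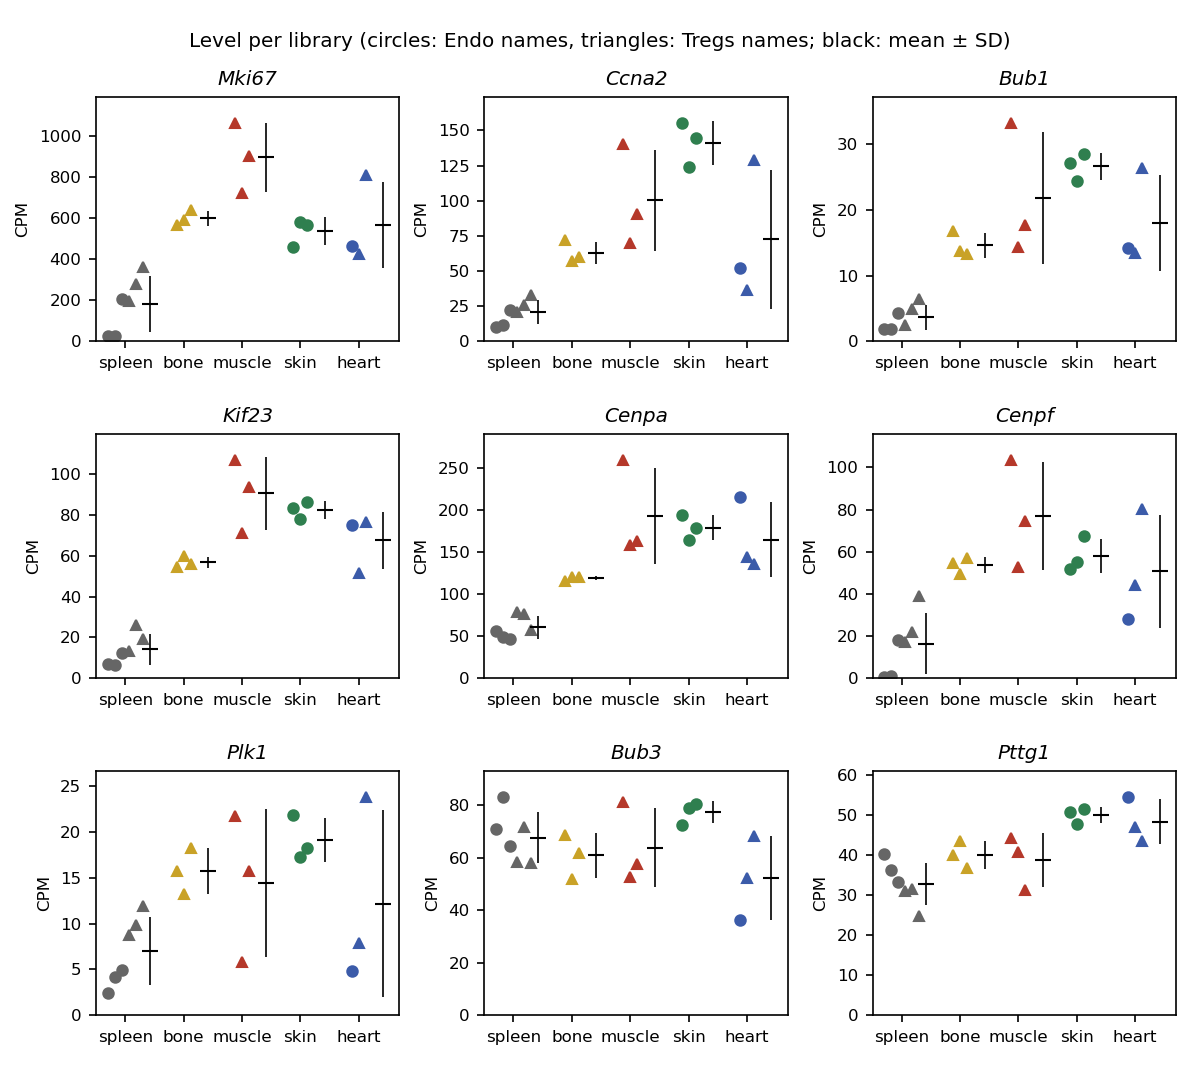
CPM per library (vertical axes) of 9 of the genes by tissue; circles have Endo names, triangles Tregs names, and black marks give mean ± SD. Ccna2, Bub1, Kif23 and Cenpa have no overlap between injured tissues and spleen, Mki67 and Cenpf show the low spleen replicates 1 and 2, and Plk1, Bub3 and Pttg1 overlap in some tissues.

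**Figure D4:**
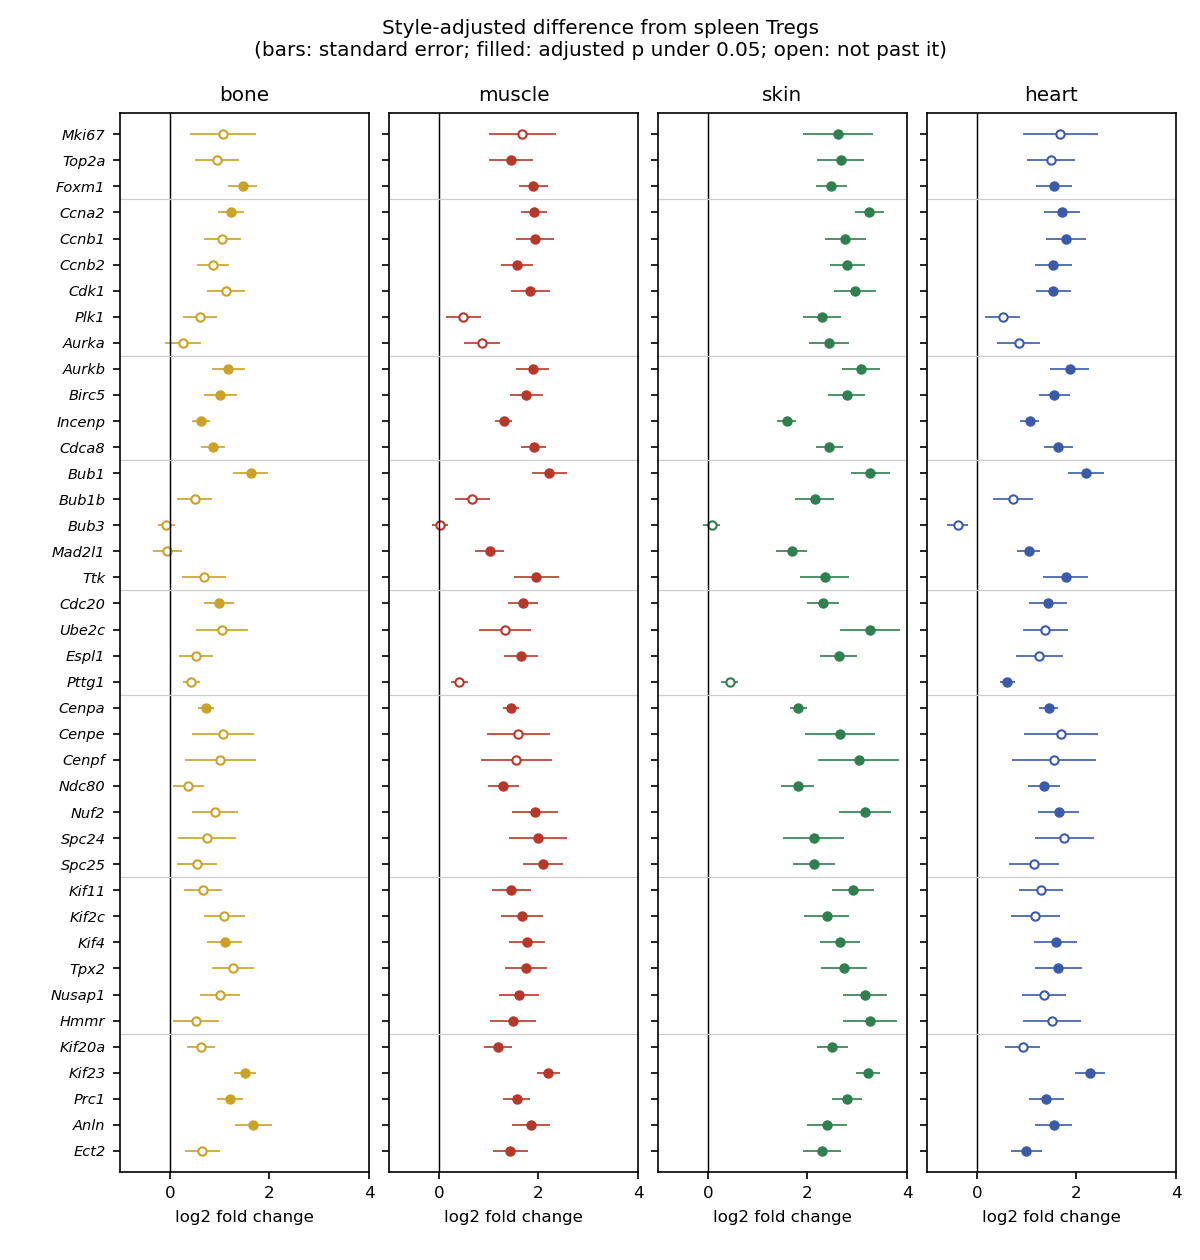
Log2 fold change against spleen ± SE (horizontal axes) of the 40 genes, adjusted for naming style, in bone, muscle, skin and heart; filled points passed an adjusted p of 0.05. The medians move from 0.93 in bone over 1.5 in heart and 1.63 in muscle to 2.62 in skin, with Bub3 near 0 in bone, muscle and skin.

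Between injured tissues, bone was lower than muscle in 5 of the 40 genes (Mad2l1, Incenp, Cdca8, Cenpa and Spc25), where 2.29% of all genes were lower, and higher in none (2.57% of all genes). None of the 5 passed without muscle replicate 1, without bone library b or without bone library c. With these left out, 7, 11 and 13 of the 40 stood at an unadjusted p under 0.05. Over all genes tested these numbers were 2970 of 16330, 2802 of 16335 and 2609 of 16354. Spc25 had the widest such gap, at log2 -1.55 ± 0.39, adjusted p = 0.024. Bone was lower than skin in 18 of 40, where 4.55% of all genes were lower, from log2 -0.96 ± 0.26, adjusted p = 0.022 for Incenp to log2 -2.73 ± 0.70, adjusted p = 0.031 for Hmmr. Bone was lower than skin in 9 of the 40 without bone library b, beside 463 of 16335 genes tested. Without spleen replicate 3 it was lower in 34, beside 1037 of 15483. Spleen replicates 1 and 2, rich in ribosomal RNA, then carry the Endo style in spleen alone, and the median log2 fold change of the 40 was -2.19. Ccna2 alone passed in every alternative. Without spleen replicates 1 and 2, where spleen replicate 3 alone carries the Endo style in spleen, the median log2 fold change of the 40 was -1.15. It was -1.65 with all libraries. By level, unadjusted for style, Hmmr stood at 25.9, 26.9 and 24.1 CPM in bone and 43.3, 36.8 and 39.8 CPM in skin. Muscle and skin differed in 0 of the 40 genes by edgeR and limma-voom (1.31% of all genes by edgeR) and in 2 by DESeq2. By edgeR 14 of the 40 were below an unadjusted p of 0.05, beside 1926 of 15617 genes tested. Between muscle and skin 15 passed without spleen replicate 3, 4 without spleen replicate 4 and 2 without muscle replicate 1, all lower in muscle. Over all genes tested, 364 of 15483, 124 of 15479 and 164 of 16330 were lower in muscle, in the same order. Without spleen replicate 3, spleen replicates 1 and 2 alone carry the Endo style in spleen. The median log2 fold change of the 40 for muscle against skin was then -1.61. Without naming style in the model this median was -0.13, and 0 of the 40 passed. Heart and muscle differed in 0 by all 3 tools (0.452% of all genes by edgeR), with 0 below an unadjusted p of 0.05 by edgeR, beside 1551 of 15926 genes tested. Heart was higher than bone in 1 gene, Mad2l1 (4.02% of all genes were higher), and lower than skin in Plk1 and Kif20a (0.892% of all genes were lower), at log2 -1.57 ± 0.38, adjusted p = 0.023 for Kif20a. None of these 3 calls held in every alternative. These contrasts use the same tissue libraries as those against spleen, and those of skin or heart also rest on the style term.

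The 40 genes varied together from library to library. Muscle replicate 1 was the highest muscle library for all 40 genes, at a median of 1.70 times the mean of the other 2 libraries. Heart replicate 3 was the highest heart library for 38 of 40, the exceptions being Cenpa and Pttg1. The median ratio of highest to lowest library was 3.86 in spleen, 1.31 in bone, 2.67 in heart, 1.90 in muscle and 1.24 in skin. Over the 780 pairs of genes the median Pearson correlation of log2 levels was 0.889 across the 18 libraries and 0.763 after subtracting group means, as a description of libraries that share depth and scaling. Style was not subtracted, so that shifts shared by a few libraries enter both values. Such shifts include the low levels of spleen replicates 1 and 2 and the high ones of muscle replicate 1 and heart replicate 3. No value for other genes was set beside them. Pttg1 had the lowest median correlation with the other genes after subtraction (-0.494), followed by Bub3 (0.162) and Cenpa (0.221). Without heart replicate 1 the genes that rose in heart were 11, and 11 also without heart replicate 3. Without spleen replicate 4 those that rose in bone were 7, and without spleen replicate 3 they were 23. In muscle replicate 1, fibroblast markers summed to 41.8 CPM, against 1.95 and 5.53 CPM in the other muscle libraries and 0 to 11.4 CPM in spleen. The sums of muscle replicate 1 for dendritic cells (53.4 CPM), CD8 T and NK cells (34.2 CPM), macrophages (14.5 CPM) and endothelium (130.5 CPM) were also the highest of muscle, and none exceeded the highest spleen library. Its B cell markers (5.73 CPM) and erythroid markers (0 CPM) lay below all 6 spleen libraries (38.8 to 109 CPM and 16.0 to 31.1 CPM). In heart replicate 3 the erythroid (2.9 CPM) and macrophage (4.78 CPM) sums lay below spleen, while those of B cells (42.4 CPM), germinal centre B cells (12.8 CPM), neutrophils and myeloid precursors (12.7 CPM) and fibroblasts (8.53 CPM) lay within the spleen range. Heart muscle markers summed to 4.46 CPM in heart replicate 3, against 3.39 and 0.392 CPM in heart replicates 1 and 2 and at most 2.54 CPM in spleen. Skeletal muscle markers summed to 1.99 CPM in muscle replicate 1, above spleen (at most 0.762 CPM). They were higher in muscle replicates 2 and 3 (71.96 and 3.47 CPM). The part of other cells in these results was not tested.

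Lists of other cell cycle genes were set beside the 40, against the shares of all genes that rose (8.48% in bone, 11.8% in heart, 14.2% in muscle and 15% in skin). Of 33 further spindle and cytokinesis genes, 9 rose in bone, 20 in heart, 27 in muscle and 31 in skin, and none fell. Fam83d, which recruits casein kinase 1 to the spindle, rose 4.995-fold in bone, 10.4-fold in muscle and 10.1-fold in heart. Of 30 genes of S phase and DNA replication, 6 rose in bone, 20 in heart, 26 in muscle and 26 in skin, with Ccne2, cyclin E2, at 2.42-fold, 4.73-fold, 5.14-fold and 5.32-fold in the same order. The median log2 fold changes of the 30 were 0.39, 0.99, 1.22 and 1.47, below those of the 40 mitotic genes in each tissue. Of 31 other kinetochore genes, 0 rose in bone by edgeR, 11 in muscle, 13 in skin and 7 in heart. In bone 4 of the 31 were higher and 1 lower at an unadjusted p under 0.05, beside 4225 of 15617 genes in either direction. Mis12, a subunit that anchors the NDC80 complex, fell in muscle (log2 -0.60 ± 0.19) and heart (log2 -1.10 ± 0.24).

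Condensin compacts mitotic chromosomes and cohesin holds sister chromatids together. Of 16 condensin and cohesin genes, 3, 6, 7 and 4 rose in bone, muscle, skin and heart and 1, 3, 1 and 0 fell. The condensin subunit genes Ncaph (2.37-fold in bone, 3.52-fold in heart, 3.43-fold in muscle and 7.19-fold in skin) and Ncapg2 (2.48-fold in bone and 4.40-fold in muscle) were among those that rose, while Smc4, the ATPase subunit shared by both condensins, fell in bone (log2 -1.15 ± 0.29), muscle (log2 -1.45 ± 0.30) and skin (log2 -0.98 ± 0.29). Of 17 genes of the anaphase-promoting complex and its regulators, 0, 3, 2 and 1 rose and 0, 1, 1 and 1 fell by edgeR, those that fell being Cdc23. As shares, 0%, 17.6%, 11.8% and 5.88% of the 17 rose, below the share of all genes in bone, skin and heart and above it in muscle. In bone, 2 of these 17 were higher and 3 lower at an unadjusted p under 0.05, beside 4225 of 15617 genes in either direction. Kif20a, one of the 40 genes, overlaps the exons of Cdc23 on the opposite strand over 29.3% of its exon bases, and with the strand setting of the counting not given in the sources used here, reads of the 2 genes cannot be told apart in that stretch. Of 21 genes of the MuvB, DREAM and E2F regulators, 1, 7, 7 and 5 rose (4.76%, 33.3%, 33.3% and 23.8%, of which bone lay below the share of all genes), with E2f7 at 2.88-fold in heart, 3.40-fold in muscle and 5.25-fold in skin. Of 22 G1 cyclins, kinases and inhibitors, 4, 8, 12 and 6 rose and 0, 2, 2 and 1 fell. Cdkn1a, the cyclin-dependent kinase inhibitor p21, averaged 2.45 ± 1.4 CPM (SD, n = 6) in spleen, with means of 36.6 ± 4.7 CPM in bone, 61.2 ± 18 CPM in heart, 42.5 ± 3.4 CPM in muscle and 72.8 ± 17 CPM in skin (n = 3 each). It rose 10.8-fold in bone, 23.7-fold in heart, 12.7-fold in muscle and 45.6-fold in skin, more than any of the 40 mitotic genes, and Ccnd3, cyclin D3, fell in muscle (log2 -0.88 ± 0.16), skin (log2 -0.66 ± 0.16) and heart (log2 -1.13 ± 0.20).

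**Figure D5:**
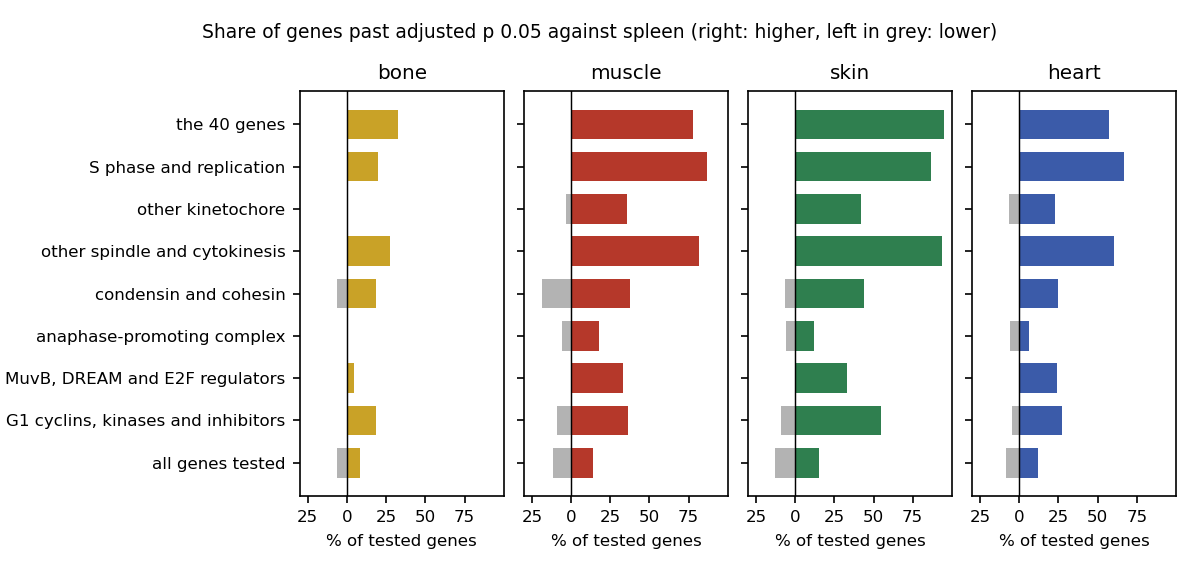
Share of tested genes past an adjusted p of 0.05 against spleen (horizontal axes, %), higher to the right and lower to the left in grey, for the 40 genes, 7 lists of other cell cycle genes and all genes tested. Spindle and cytokinesis genes (9 to 31 of 33 higher) and S phase genes (6 to 26 of 30) have the longest bars of the 7 lists, and the anaphase-promoting complex has at most 3 of 17.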

How the data were processed

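The authors deposited 2 tables of raw counts per gene (46078 genes), of which the second held heart and the first the other injured tissues, and both held the same 6 spleen columns with identical values. Per the submitters' processing notes, the tools named are STAR, featureCounts and limma with GRCm38, and per the labels, libraries were made from 1 ng of RNA with an Ovation Solo kit. Not given in the sources used here were the annotation, the strand setting and how multi-mapping reads were treated. With exons from GENCODE release M21, 9 of the 40 genes overlap a gene on the opposite strand and 2 a gene on the same strand, so that their reads can be mixed. For 2 bone columns, called libraries b and c, the group is known but not the replicate number.

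In R 4.3.3 with edgeR 4.0.16, low counts were removed (filterByExpr, given the groups), library sizes were scaled (TMM), and each gene had a robust quasi-likelihood F test, its p adjusted after Benjamini and Hochberg over all genes tested and read at 0.05. The model held group and naming style and was fitted 3 times: to the first table (15 libraries), to the second (9), and to all 18 libraries where heart was set against another injured tissue. Each standard error follows from the log2 fold change and the F statistic. CPM levels were computed with TMM scaling over all 18 libraries. The script was tested on simulated counts. Only the spread between libraries enters the p-values. In the injured tissues each library is a pool of 3 mice. The labels do not state whether spleens were pooled. The 40 genes, the lists of other cell cycle genes and the tests were chosen with earlier results of these data known. All 40 genes are named, with values in every library for those chosen by role, and of each list up to 2 highest and 2 lowest genes past the threshold were eligible for naming. Alternatives left out the naming style or each library in turn, scaled by RLE or the upper quartile, used DESeq2 1.42.0, limma-voom (limma 3.58.1), no filter, a replicate block, other sets of spleen libraries or 1 fit of all 18 libraries.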

Additional observations from a re-analysis of the deposited data

Results flagged for a closer look

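Between injured tissues the change from spleen differed, by a test of the difference itself, in 5 of the 40 mitotic genes for bone against muscle and in 18 for bone against skin, with bone the lower tissue each time. Of all genes tested, 2.29% and 4.55% were lower in bone in these comparisons. It differed in 1 gene for heart against bone (Mad2l1, higher in heart) and in 2 for heart against skin (Plk1 and Kif20a, lower in heart). For heart against bone that is 2.5% of the 40, below the 4.02% of all genes that were higher. For heart against skin, 0.892% of all genes were lower. The genes and their values stand in the report.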

How the results depend on the processing

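None of the 40 genes changed direction with a call under any alternative. For the list gene Btg1 in skin, the log2 change was -0.07 (adjusted p = 0.81 by edgeR). It reversed to 0.545 when spleen replicates 1 and 2 were left out, in effect a comparison with spleen replicate 3 alone. Called in every alternative were 7 of 13 genes in bone (Ccna2, Bub1, Cenpa, Kif23, Prc1, Anln and Foxm1), 26 of 31 in muscle, 30 of 38 in skin and 7 of 23 in heart (Ccnb1, Bub1, Birc5, Incenp, Cdca8, Cenpa and Kif23), and between tissues Ccna2 alone, for bone against skin. For each lost call the cause was not tested.

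Without the naming style, the called genes among the 40 numbered 21 for bone against spleen, 2 for bone against muscle, 10 for bone against skin, 0 for heart against bone and 0 for heart against skin. With limma-voom they were 23, 10 and 8 in the first 3 of these, 1 for heart against skin and 1 for style. Without the filter they were 27 for bone and 37 for heart against spleen, 17 for bone against muscle, 34 for bone against skin, 17 for muscle against skin, 2 for heart against bone, 22 for heart against skin and 24 for style. With DESeq2 they were 8 for bone against muscle, 2 for muscle against skin, 7 for heart against skin and 9 for style. Leaving out spleen replicates 1 and 2, rich in ribosomal RNA, they were 22 for bone against spleen, 9 for bone against muscle, 0 for heart against bone and 1 for heart against skin. Bone against skin and style then rest on spleen replicate 3 as the only Endo-style spleen library, and no counts are given for them. With spleen libraries of the same style, bone had 20, and with 1 fit of all libraries bone against muscle had 2.

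The replicate numbers did not pair the samples (r of -0.244 to 0.325 over 18 pairs, 2 above 0.1). With a replicate block in place of style, heart against spleen had 35 called genes of the 40 and heart against skin 0. Heart has replicates 1 to 3 only, so that this block in effect sets it against spleen replicates 1 to 3. These include the 2 spleen libraries rich in ribosomal RNA. The other spleen libraries each stand alone in a block and add nothing to heart against spleen. The median log2 fold change of the 40 genes was then 2.08, beside 1.5 with style. Bone could not be fitted because its columns carry no numbers. Over all genes the block gave 1090 for muscle against skin (205 before) and 806 for heart against skin (379 before).

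Over all genes, without the filter the counts were 1191 for bone against muscle (759 before), 618 for muscle against skin, 380 for heart against muscle (72 before) and 909 for heart against skin. With DESeq2 they were 1270 for bone against muscle, 427 for muscle against skin, 1630 for heart against bone (1064 before), 211 for heart against muscle and 672 for heart against skin. With limma-voom they were 843 for bone against skin (1267 before), 75 for muscle against skin and 250 for heart against skin. Without style they were 432 for bone against muscle, 2814 for bone against skin, 749 for muscle against skin and 742 for heart against skin. With 1 fit they were 493 for bone against muscle and 115 for muscle against skin. Leaving out spleen replicates 1 and 2, rich in ribosomal RNA, they were 2548 for skin against spleen (4342 before), 705 for bone against skin, 126 for muscle against skin and 638 for heart against skin.

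Leaving out each library in turn, the called genes of the 40 ranged from 7 to 23 for bone, 26 to 34 for muscle, 38 to 39 for skin and 11 to 33 for heart against spleen. Between tissues they ranged from 0 to 11 for bone against muscle, 9 to 34 for bone against skin, 0 to 15 for muscle against skin, 0 to 1 for heart against bone, 0 to 0 for heart against muscle and 0 to 9 for heart against skin. The highest counts for bone against skin and for muscle against skin came without spleen replicate 3. Spleen replicates 1 and 2, rich in ribosomal RNA, are then the only spleen libraries of Endo style. The counts for bone against spleen were decided by spleen replicate 4 (7 without it) and spleen replicate 3 (23 without it), and those for heart by heart replicates 1 and 3 (11 without either). Over all genes the ranges were 1784 to 2604 for bone, 3257 to 4257 for muscle, 3368 to 4495 for skin and 2241 to 2894 for heart against spleen, 256 to 1040 for bone against muscle, 777 to 1705 for bone against skin, 101 to 528 for muscle against skin, 429 to 1115 for heart against bone, 27 to 104 for heart against muscle and 205 to 522 for heart against skin.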

Other observations

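The relations here were noticed in the data and are given as values. Spleen replicates 1 and 2, the libraries richest in ribosomal RNA genes, were lower than spleen replicates 3 to 6 in 38 of the 40 genes, with a median log2 ratio of -1.35 beside -0.02 over 10421 genes with a mean above 5 CPM. The gap was widest for Cenpf (0.661 and 0.865 CPM against 17.2 to 39.2 CPM, log2 ratio -4.98), followed by Cenpe (-3.98) and Mki67 (-3.36), genes with 15433, 8620 and 10061 exon bases. Across the 40 genes, which share the same libraries, the log2 ratio correlated with log2 exon length at r = -0.487, and across the 10421 genes at -0.0978. By exon length the median log2 ratio of those 10421 genes was 0.137 up to 2000 bases, 0.109 from 2000 to 4000, -0.05 from 4000 to 8000, -0.20 from 8000 to 12000 and -0.40 above 12000. For the 40 genes it was -0.21, -0.98, -1.43 and -1.36 in the first 4 of these ranges (3, 7, 22 and 7 genes). Cenpf was the only 1 of the 40 above 12000 bases. Among other long genes, Anln (9063 bases) stood at -1.09 and Mad2l1 (8390 bases) at -0.78.

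Mki67 and Ccna2, both markers of cycling cells, did not keep 1 ratio. The CPM of Mki67 divided by that of Ccna2 was 2.66 and 2.08 in spleen replicates 1 and 2 and 9.29 to 11.1 in spleen replicates 3 to 6. It was 7.86 to 10.7 in bone, 7.57 to 10.3 in muscle and 6.27 to 11.6 in heart, but 2.95, 4.7 and 3.93 in skin. The 3 skin libraries lay below every library of bone, muscle and heart in this ratio, which was chosen after its values were seen. Ribosomal RNA repeat genes took 4.09% to 5.97% of counts in skin and 2.81% to 4.24% in the other injured tissues. In spleen replicates 3 to 6, where the ratio was high, they took 5.1% to 6.58%. The Endo style was borne by the 3 skin libraries and spleen replicates 1 and 2, but also by spleen replicate 3 (ratio 9.35) and heart replicate 1 (8.93). The part of ribosomal RNA and of style in the ratio was not tested.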
